A study of Pardosa pseudoannulata with 6 samples.

Results

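The Hippo pathway limits organ growth in flies and mammals. A kinase cascade, in which the kinase Hippo works with the scaffold Salvador and the kinase Warts (LATS in mammals) works with its activator Mats (MOB1), phosphorylates the coactivator Yorkie (YAP in mammals) and keeps it out of the nucleus. Unphosphorylated Yorkie binds the DNA-binding protein Scalloped (TEAD in mammals) and turns on growth and survival genes, while the membrane-linked scaffold Merlin promotes the cascade. In flies and mammalian cells, filamentous actin acts on this pathway upstream of Yorkie, and the control lies largely in phosphorylation and location of proteins, which transcript levels do not show.

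The 6 transcripts described here are members of this core, 1 for each of 6 of its proteins, found among the transcripts of the paddy-field wolf spider Pardosa pseudoannulata, out of 75542 genes in all. They were chosen by identifier from the names of their best protein hits: a YAP1-A-like coactivator (Cluster-8110.35150), a TEF-1-like factor of the TEAD family (Cluster-8110.35143), a LATS1-like kinase (Cluster-8110.33359), a MOB kinase activator 1B (Cluster-8110.38364, MOB1B below), a salvador homolog (Cluster-8110.27681) and a merlin-like protein (Cluster-8110.43773). A Hippo kinase cluster and a second Yorkie cluster are given with the other pathway genes. The best hits of all 6 were spider proteins, and their orthology groups in the table were YAP1 or Yki, TEAD, LATS or Wts, MOB1 or Mats, SAV1 and NF2. Transcript lengths were 2573, 5406, 5900, 2808, 2699 and 3548 bases in that order. The genes are clusters of assembled transcripts without genome positions, so no coordinates are given.

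All 6 libraries came from spiders treated with cadmium and microinjected with double-stranded RNA to silence a gene by RNA interference. In 3 libraries (dsFactin) the target was F-actin, and the other 3 libraries (dsNC) are taken here as the control injection, since F-actin is the only silencing target named and the labels do not spell out NC. The labels name the material only as individuals and give no age, sex, dose or time. If each library is a whole animal, its values average over all organs, and fewer cells of a type cannot be told apart from less RNA per cell. No label says whether replicates were separate animals, so p-values measure only the spread between these libraries, which may be technical.

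Levels are FPKM, fragments per kilobase of transcript, scaled by library depth, so they can be compared between genes. The depth recovered from the values was 16.1 to 17.9 M fragments (M, 1e6) in dsFactin and 15.7 to 17.6 M in dsNC. An abundant cytoplasmic actin (Cluster-8110.34823) was at 1906, 2321 and 3221 FPKM in dsFactin, against 4443, 5949 and 5426 FPKM in dsNC, and which actin the injected RNA matched is not stated. Of 53182 genes tested with limma, 41 (0.0771%) were higher and 223 (0.419%) lower in dsFactin at a Benjamini-Hochberg adjusted p under 0.05, and 67 were higher and 176 lower after quantile normalization. The median log2 difference of all tested genes, dsFactin minus dsNC, was -0.27, and it was -0.09 after median-ratio scaling and 0.01 after quantile normalization, so differences are also given relative to it. Marker lists are read beside the 21.5% of all tested genes that lay wholly below and the 5.98% that lay wholly above dsNC. Summed muscle markers were at 4344 to 5461 FPKM in dsFactin and 8729 to 10476 FPKM in dsNC, with 36 of 59 tested members below in dsFactin. Summed nerve markers were at 121 to 139 FPKM in dsFactin and 146 to 204 FPKM in dsNC, with 5 of 22 below, close to the share of all genes. Cuticle proteins summed to 15923, 6898 and 27002 FPKM in dsFactin replicates 1 to 3 and to 26924 to 32495 FPKM in dsNC (48 of 138 below). Hemocyanins summed to 43746 to 53998 FPKM in dsFactin and 71798 to 88725 FPKM in dsNC (26 of 43 below). Yolk proteins summed to 14398 to 25751 FPKM in dsFactin and 9867 to 14069 FPKM in dsNC (16 of 35 above), and silk proteins overlapped between the groups. Their part in the results below was not tested.

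The transcription factor pair and the LATS1-like kinase lay at lower values in dsFactin than in any dsNC library, while MOB1B, which activates that kinase in flies and mammals, overlapped between the groups. None of the 6 members passed the test. With limma, 0 of 6 had an adjusted p under 0.05, where 0.496% of all tested genes did, and 3 of 6 had an unadjusted p under 0.05, where 19.3% of all tested genes did. No member passed with voom on estimated fragments either.

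The YAP1-A-like transcript, the spider counterpart of the coactivator Yorkie, was at 21.3, 16.1 and 19.4 FPKM in dsFactin replicates 1 to 3 and at 31.6, 24.5 and 28.5 FPKM in dsNC replicates 1 to 3. The highest dsFactin library was below the lowest dsNC library. Its mean in dsFactin was 67.0% of that in dsNC, which on the log2 scale is -0.55 ± 0.16 (SE, 95% interval -0.94 to -0.17, adjusted p = 0.149, limma). Relative to the median of all genes the difference was -0.29. After median-ratio scaling the groups overlapped, since dsFactin replicates 1 and 3 then stood above dsNC replicate 2.

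The TEF-1-like transcript, the DNA-binding partner through which Yorkie reaches its targets, was at 3.73, 4.5 and 3.07 FPKM in dsFactin and at 5.97, 6.66 and 6.43 FPKM in dsNC. Every dsFactin library was below every dsNC library, also after median-ratio scaling and after quantile normalization. The dsFactin mean was 59.3% of the dsNC mean, the lowest share among the 6. The log2 difference was -0.64 ± 0.18 (SE, 95% interval -1.07 to -0.20, adjusted p = 0.140, limma), or -0.37 relative to the median of all genes.

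The LATS1-like transcript, the kinase that inactivates Yorkie in flies, was at 5.11, 7.24 and 5.41 FPKM in dsFactin and at 9.69, 10.02 and 8.62 FPKM in dsNC. The groups did not overlap, and stayed apart after both scalings, with dsFactin replicate 2 at 7.85 and the lowest dsNC library at 8.003 scaled FPKM under median ratios. The log2 difference was -0.60 ± 0.17 (SE, 95% interval -1.03 to -0.18, adjusted p = 0.148, limma), with the dsFactin mean at 62.7% of dsNC. The differences of the coactivator, its partner and the kinase that restrains them thus lay between -0.64 and -0.55.

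MOB1B was at 21.0, 21.7 and 24.6 FPKM in dsFactin and at 24.0, 22.1 and 19.6 FPKM in dsNC. Group ranges overlapped, and the dsFactin mean was 102% of the dsNC mean. The log2 difference was 0.03 ± 0.14 (SE, adjusted p = 0.906, limma), and its 95% interval of -0.29 to 0.36 leaves room for differences in either direction. After median-ratio scaling MOB1B was at 21.8, 23.6 and 29.3 in dsFactin, against 20.7, 17.7 and 19.4 in dsNC, with every dsFactin library above.

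The scaffolds stood at the lowest levels. Salvador, which holds Hippo and Warts together in flies, was at 1.96, 3.46 and 1.83 FPKM in dsFactin and at 3.05, 2.93 and 2.73 FPKM in dsNC. A single library, dsFactin replicate 2, stood above all dsNC libraries while the other dsFactin libraries stood below them, and the coefficient of variation was 37.5% in dsFactin and 5.57% in dsNC. These values rest on about 71 to 138 fragments a library, for which counting error alone is 11.9% at the lowest. The log2 difference of salvador was -0.22 ± 0.24 (SE, adjusted p = 0.635, limma), and -0.43 without dsFactin replicate 2. The merlin-like transcript was at 1.79, 1.85 and 1.33 FPKM in dsFactin and at 2.37, 2.33 and 2.14 FPKM in dsNC, without overlap. Its log2 difference of -0.31 ± 0.20 (SE, adjusted p = 0.446, limma) was -0.04 relative to the median of all genes, and its groups overlapped after both scalings.

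**Figure D1:**
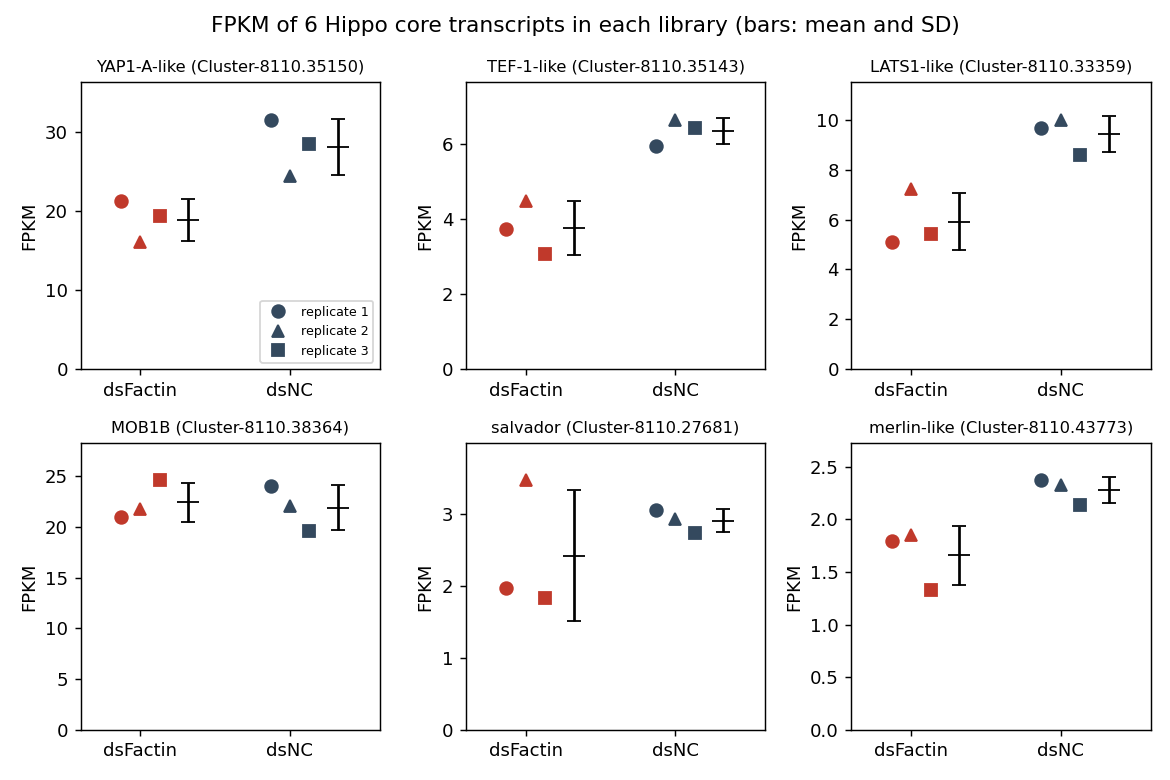
FPKM of the 6 members (vertical axes, from 0) in each library, dsFactin left and dsNC right, with the mean and SD of 3 libraries as bars. YAP1-A-like, TEF-1-like, LATS1-like and merlin-like show no overlap between groups, MOB1B overlaps, and salvador has 1 dsFactin library at 3.46 FPKM above all of dsNC.

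Counted together, 4 of 6 members had all dsFactin libraries below all dsNC libraries and 0 of 6 above, where 21.5% of all tested genes lay wholly below and 5.98% wholly above. That share depended on transcript length. Among genes with a mean of 1 to 50 FPKM it was 16.2% below 1000 bases, 34.3% from 2000 to 4000 bases and 48.2% from 4000 to 8000 bases, while the median log2 difference was -0.36, -0.27 and -0.33 in the same classes. The TEF-1-like and LATS1-like transcripts belong to the longest class and the other 4 members to the class from 2000 to 4000 bases. The length classes were added after the data were seen. Under median-ratio scaling 2 of 6 members lay below and 1 of 6 above, beside 12.9% and 11.7% of all genes, and under quantile normalization 3 lay below and 0 above, beside 9.79% and 11.1%.

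The members were also set beside genes of like level, as a description without a test. Genes with a mean of 5 to 20 FPKM had a median log2 difference of -0.21, and 20.04% of them lay below the TEF-1-like value and 21.5% below the LATS1-like value. For genes of 20 to 50 FPKM the median was -0.01. In that class 18.6% of genes lay below the YAP1-A-like value and 53.6% below that of MOB1B. Genes of 1 to 5 FPKM had a median of -0.36, and salvador and the merlin-like transcript stood 0.14 and 0.05 above it. The median log2 difference of the 6 members was -0.43.

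**Figure D2:**
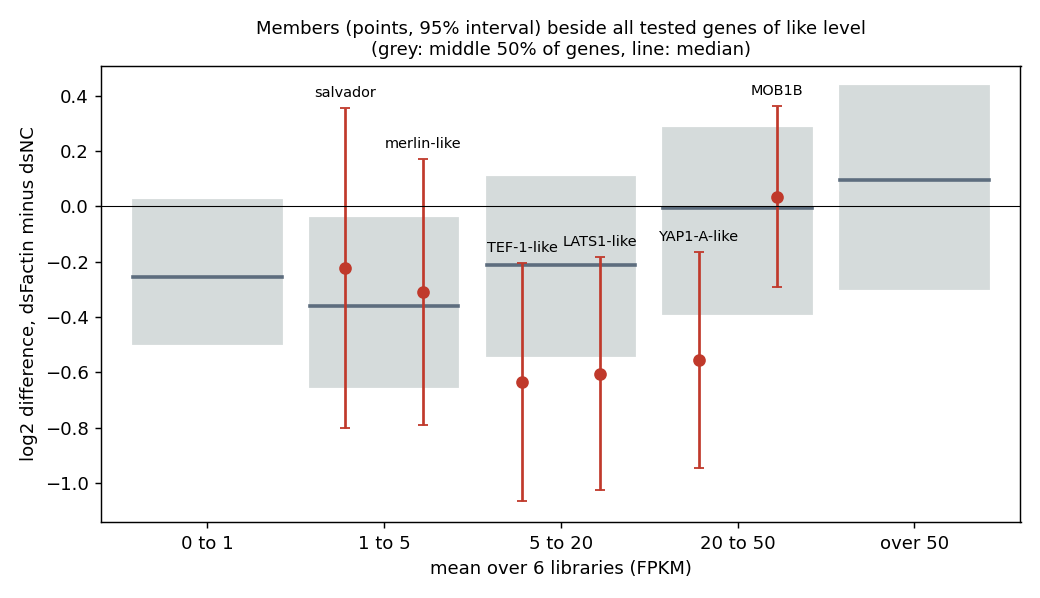
Log2 difference of each member (vertical axis, points with 95% interval) by mean level in FPKM (horizontal axis), beside the middle 50% (grey) and median (line) of all tested genes of that level. YAP1-A-like, TEF-1-like and LATS1-like lie below the grey boxes of their levels, and MOB1B, salvador and merlin-like lie near the lines.

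The order of levels differed between the groups at its top. In dsFactin MOB1B came first with a mean of 22.4 ± 1.91 FPKM, before YAP1-A-like with 18.9 ± 2.65 FPKM (SD, n = 3), and their ranges overlapped. In dsNC YAP1-A-like came first with 28.2 ± 3.57 FPKM, before MOB1B with 21.9 ± 2.23 FPKM, without overlap. LATS1-like, TEF-1-like, salvador and merlin-like followed in this order in both groups. In dsNC no neighbours overlapped, and in dsFactin the ranges of TEF-1-like and salvador and of salvador and merlin-like did.

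Ratios between members within a library do not depend on how libraries are scaled to each other, and 15 pairs were compared. In 7 of 15 the groups did not overlap, and 4 of these held MOB1B. The YAP1-A-like to MOB1B ratio was 1.015, 0.739 and 0.788 in dsFactin replicates 1 to 3, against 1.32, 1.11 and 1.46 in dsNC replicates 1 to 3 (exact two-sided permutation p = 0.1, the smallest that 3 against 3 libraries can give). Coactivator transcripts thus outnumbered those of the kinase activator, per length, in all 3 dsNC libraries and in 1 of 3 dsFactin libraries.

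LATS1-like, the kinase that MOB1 activates in flies and mammals, stood to MOB1B at 0.244, 0.333 and 0.220 in dsFactin, against 0.403, 0.453 and 0.440 in dsNC, a mean ratio lower by 0.72 on the log2 scale in dsFactin (exact p = 0.1). The TEF-1-like to MOB1B ratio was 0.178, 0.207 and 0.125 in dsFactin, against 0.249, 0.301 and 0.328 in dsNC, with a log2 difference of -0.81 (exact p = 0.1). The MOB1B to merlin-like ratio was 11.7, 11.7 and 18.5 in dsFactin, against 10.1, 9.49 and 9.15 in dsNC, with a log2 difference of 0.51 (exact p = 0.1). MOB1B therefore differed from 4 of its 5 partners without overlap, where 32.8% of all tested genes above 0 in every library did so in their ratio to MOB1B.

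The remaining ratios without overlap were those of TEF-1-like to salvador and to merlin-like and of LATS1-like to salvador, at log2 differences of -0.45, -0.30 and -0.36. TEF-1-like differed without overlap from 3 of 5 partners, beside 34.3% of all genes, and LATS1-like from 2 of 5, beside 31.7%. YAP1-A-like did so from 1 of 5, beside 26.1%, salvador from 2 of 5, beside 15.4%, and merlin-like from 2 of 5, beside 29.6%.

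Ratios among the coactivator, its partner and the kinase overlapped. YAP1-A-like to TEF-1-like stood at 5.71, 3.57 and 6.31 in dsFactin, against 5.30, 3.68 and 4.43 in dsNC (log2 difference 0.19, exact p = 0.6). YAP1-A-like to LATS1-like stood at 4.16, 2.22 and 3.58 in dsFactin, against 3.26, 2.44 and 3.31 in dsNC (log2 difference 0.11, exact p = 0.8). TEF-1-like to LATS1-like differed by -0.08 (exact p = 0.6).

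**Figure D3:**
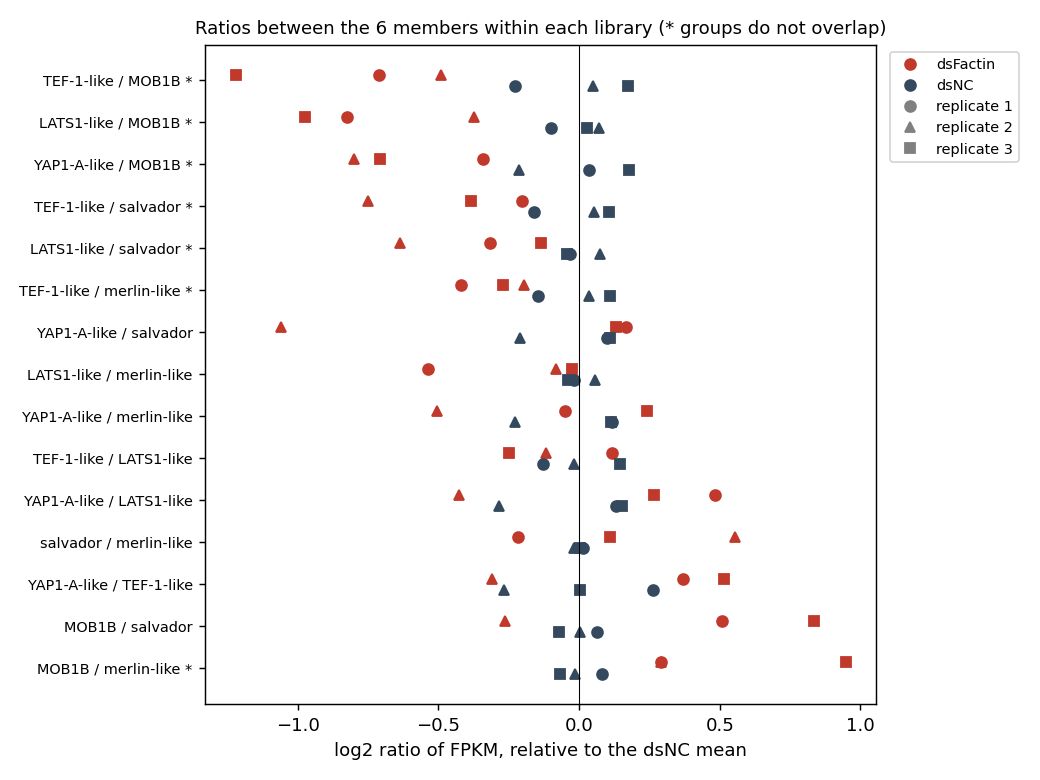
Log2 ratio of FPKM between members within each library (horizontal axis), relative to the dsNC mean of that ratio, for 15 pairs (vertical axis), dsFactin in red above dsNC in dark blue. By the dsFactin mean, the 3 ratios of TEF-1-like, LATS1-like and YAP1-A-like over MOB1B lie farthest left, with no dsFactin library among the dsNC libraries.

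Libraries of the dsFactin group had a larger coefficient of variation than those of dsNC for 5 of 6 members. For YAP1-A-like the excess was slight. The share of all tested genes with a larger coefficient in dsFactin is not given, so whether this spread is particular to the members was not tested. The coefficients of variation of TEF-1-like, LATS1-like and merlin-like were 19.0%, 19.5% and 17.2% in dsFactin and 5.53%, 7.75% and 5.39% in dsNC. MOB1B was the exception, with 8.50% in dsFactin and 10.2% in dsNC. Replicate 2 held the highest dsFactin value of TEF-1-like, LATS1-like, salvador and merlin-like, 4 of 6 members, and the lowest of YAP1-A-like. That library also held the most genes above 0 among the dsFactin libraries, 55781 beside 54264 and 47167, and the lowest cuticle sum, 6898 FPKM. Without it, the LATS1-like log2 difference was -0.74 (adjusted p = 0.0770, limma, within a range of 0.0704 to 0.422 over the alternatives).

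Other transcripts carried the same protein names. A second cluster with a Yorkie best hit (Cluster-8110.40946, 5310 bases) was at 1.52 ± 0.278 FPKM in dsFactin and 2.20 ± 0.357 FPKM in dsNC (SD, n = 3), without overlap (difference -0.35 ± 0.21 on the log2 scale, SE, adjusted p = 0.429, limma). The YAP1-A-like cluster stood 9.85 to 16.1 times higher than it in dsFactin and 10.7 to 15.7 times higher in dsNC, and it was not tested whether they come from a common gene. Clusters with a MOB kinase activator-like 3 hit, of the MOB family but not known as LATS activators, were at 2.05 ± 0.613 and 3.88 ± 0.617 FPKM (Cluster-8110.18349, dsFactin and dsNC) and at 1.1 ± 0.275 and 2.23 ± 0.280 FPKM (Cluster-8110.16058). Their log2 differences were -0.69 (adjusted p = 0.185, limma) and -0.63 (adjusted p = 0.198), where genes of 1 to 5 FPKM had a median of -0.36. That of MOB1B was 0.03, with a 95% interval of -0.29 to 0.36. Of 7 other tested core and effector clusters, the Yorkie, MOB, Hippo kinase and vestigial-like hits included, 4 lay below and 0 above. Among all tested genes 21.5% lay below and 5.98% above. A MOB kinase activator-like 2 transcript (Cluster-8110.34527) was at 29.1 ± 4.52 FPKM in dsFactin and 33.3 ± 2.72 FPKM in dsNC, with overlap.

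The wider pathway was read from 115 genes whose best-hit names matched a word list, after 24 of 139 word matches to unrelated proteins were removed. Without the 6 members and 12 genes with a Drosophila best hit it held 97 genes, 92 of them tested. In limma 0 were higher and 1 was lower in dsFactin, beside 0.0771% and 0.419% of all genes, and 25 of 92 had an unadjusted p under 0.05, beside 19.3%. The groups lay apart below in 43.5% and above in 5.43% of the 92, beside 21.5% and 5.98% of all genes, and the median log2 difference was -0.33, beside -0.27. Lengths were not matched in this count, and repeated hits to the same protein are included. Of the 92 genes, 11 reached the filter's 0.5 FPKM in all dsNC libraries but in fewer than 3 dsFactin libraries. Without them 43.2% of the other 81 lay below, beside 16.01% of all genes treated alike, a count added after the data were seen. The 1 gene called was one of these 11, a short transcript with a fat-like cadherin best hit (Cluster-8110.25323, 412 bases). It had no orthology group, and whether it belongs to a cadherin that signals to the cascade was not tested. Its levels were 0.41, 1.09 and 0 FPKM in dsFactin and 7.72, 7.01 and 7.94 FPKM in dsNC (adjusted p = 0.0384, limma). Since it met the filter through the dsNC libraries, the call is given as a description only. It did not pass with a pseudocount of 0.1, without a filter, with median-ratio scaling, with voom or with the replicate block, nor without any single library other than dsFactin replicate 2. The 3 longer transcripts of that name, chosen after their values were seen, did not pass and differed among themselves. Cluster-8110.33676 (15566 bases) was at 4.44 ± 0.185 FPKM in dsFactin and 4.57 ± 0.137 FPKM in dsNC, with overlap. Cluster-8110.42676 (15206 bases) was at 0.827 ± 0.317 FPKM in dsFactin and 1.90 ± 0.297 FPKM in dsNC, without overlap (log2 difference -0.67). Cluster-8110.30502 (4540 bases) was at 1.90 ± 1.22 FPKM in dsFactin and 3.69 ± 0.498 FPKM in dsNC, with overlap (log2 difference -0.77).

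Upstream genes, the membrane proteins and scaffolds that feed the kinases, had 23 of 49 below and 0 above, at a median log2 difference of -0.46. Repeated hits are included, many of them short spectrin or Fat-type cadherin transcripts, so the 49 need not be separate genes. All tested genes had 21.5% below, 5.98% above and a median of -0.27. The counts by role were matched neither for level nor for length. They keep the 11 genes that met the filter through the dsNC libraries, of which 5 lay wholly below. Lethal(2) giant larvae (Cluster-8110.33698), a polarity protein, was at 78.8 ± 10.8 FPKM in dsFactin and 86.4 ± 2.0 FPKM in dsNC, with overlap. A less abundant hit to that protein (Cluster-8110.39619) was at 2.38 ± 0.163 and 3.96 ± 0.735 FPKM, without overlap (log2 difference -0.54, adjusted p = 0.207, limma). Spectrin alpha chain clusters, of the membrane skeleton, were at 71.5 ± 11.6 and 86.3 ± 3.67 FPKM (Cluster-8110.35275) and at 50.5 ± 14.9 and 58.9 ± 5.78 FPKM (Cluster-8110.30213) in dsFactin and dsNC. The Hippo kinase itself, a serine/threonine-protein kinase 3-like hit (Cluster-8110.23007, chosen after its values were seen), was at 1.35 ± 0.0866 FPKM in dsFactin and 1.84 ± 0.269 FPKM in dsNC (log2 difference -0.27, adjusted p = 0.512, limma).

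Of 8 clusters that the word list put with kinases acting on LATS, repeated hits included, 5 lay below and 1 above. Among all tested genes 21.5% lay below and 5.98% above. The median log2 difference of the 8 was -0.37, beside -0.27. The 5 include a MARK kinase hit (Cluster-8110.29264) at 0.7, 0.39 and 0 FPKM in dsFactin, which met the filter through the dsNC libraries. A Tao hit (Cluster-8110.30056), the kinase that activates Hippo in flies, was at 18.7 ± 1.49 FPKM in dsFactin and 22.1 ± 1.31 FPKM in dsNC. A misshapen-like kinase (Cluster-8110.42451), which acts on Warts in flies, was at 8.71 ± 1.83 FPKM in dsFactin and 6.55 ± 0.381 FPKM in dsNC, the 1 above. A further MARK kinase hit (Cluster-8110.38547) was at 23.0 ± 2.47 FPKM in dsFactin and 24.1 ± 1.16 FPKM in dsNC. Of 8 genes that the word list put with STRIPAK, the phosphatase complex that holds Hippo inactive, 3 lay below and 1 above. These counts stand beside the same 21.5% and 5.98% of all tested genes. A striatin-3 hit (Cluster-8110.32471), the scaffold of the complex, was at 11.6 ± 0.940 and 14.4 ± 0.659 FPKM (dsFactin and dsNC). A sarcolemmal membrane-associated protein hit (Cluster-8110.31661), an adaptor of that complex, was at 25.3 ± 5.47 and 34.6 ± 3.70 FPKM. The 1 above was a regulatory subunit of the phosphatase PP2A (Cluster-8110.32582) of another family than the striatins, and so not a known part of the complex. It was at 29.2 ± 3.96 and 21.9 ± 2.23 FPKM (dsFactin and dsNC). Adjusted p-values in limma for the named kinases and genes listed with the complex were 0.223 to 0.781.

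The 14-3-3 proteins, which hold phosphorylated Yorkie in the cytoplasm, did not go one way. Of 8 genes of Yorkie binding and protein turnover 3 lay below and 1 above, beside 21.5% and 5.98% of all tested genes. A 14-3-3 zeta-like transcript (Cluster-8110.34204) was at 199 ± 48.6 FPKM in dsFactin and 119 ± 7.16 FPKM in dsNC, all dsFactin libraries above (adjusted p = 0.121, limma). A more abundant 14-3-3 zeta transcript (Cluster-8110.34289) was at 288 ± 12.1 FPKM in dsFactin and 323 ± 11 FPKM in dsNC, all dsFactin libraries below (adjusted p = 0.444). A 14-3-3 epsilon transcript (Cluster-8110.35387) was at 139 ± 13.9 FPKM in dsFactin and 131 ± 2.48 FPKM in dsNC.

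Genes that the word list put with targets of Yorkie or YAP in flies or mammals were tested as 8 transcripts, E2F hits included. No gene was listed under more than a single role. Four-jointed, crumbs, kibra and merlin hits stand with the upstream genes, so the 8 are not a full list of targets. Of the 8, 2 lay below and 0 above, beside 21.5% and 5.98% of all tested genes. Their median log2 difference was -0.13, beside -0.27. An inhibitor of apoptosis of the BIRC7 type (Cluster-8110.31842), a blocker of caspases, was at 40.5 ± 5.67 FPKM in dsFactin and 42.8 ± 1.63 FPKM in dsNC, and a further inhibitor of apoptosis (Cluster-8110.37358) at 9.69 ± 2.79 and 7.61 ± 0.439 FPKM. A myc hit (Cluster-8110.32073), a transcription factor that promotes growth, was at 12.99 ± 0.932 FPKM in dsFactin and 17.4 ± 0.496 FPKM in dsNC, without overlap (log2 difference -0.39 ± 0.12, SE, adjusted p = 0.167, limma). Of 4 actin regulators that act on the pathway in flies, 2 lay above and 0 below. Both were over 50 FPKM, where 31.5% of all tested genes lay above and the median log2 difference was 0.09. Cofilin (Cluster-8110.34951), which severs filaments, was at 585 ± 99.8 FPKM in dsFactin and 473 ± 17.1 FPKM in dsNC, and adenylyl cyclase-associated protein 2-like (Cluster-8110.30562), which recycles actin monomers, at 114 ± 6.24 and 91.9 ± 4.10 FPKM, both without overlap (adjusted p = 0.348 and 0.187, limma). The capping protein beta subunit (Cluster-8110.36949), which blocks filament ends, was at 72.7 ± 1.72 FPKM in dsFactin and 71.0 ± 4.03 FPKM in dsNC.

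**Figure D4:**
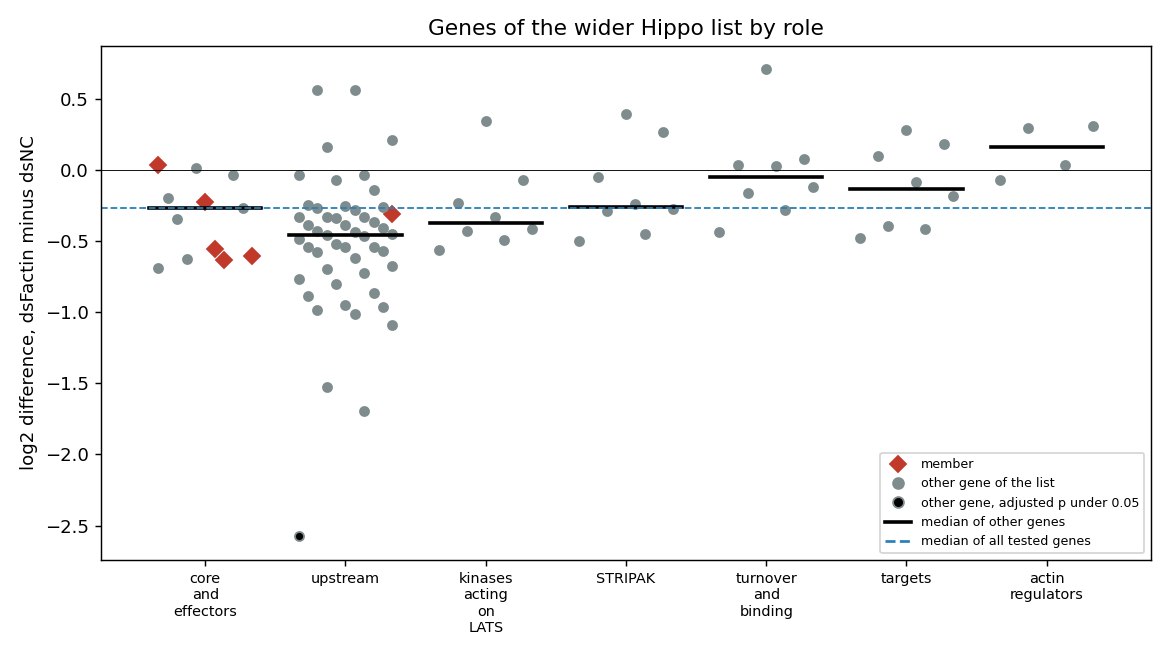
Log2 difference, dsFactin minus dsNC (vertical axis), of the 92 other tested genes of the wider list and the 6 members by role (horizontal axis), with the median of the other genes in each role. Upstream genes have a median of -0.46, below the dashed median of all tested genes at -0.27, and actin regulators have a median of 0.16. Roles are not matched for level and include repeated hits to the same protein. The median of all tested genes was -0.36 at 1 to 5 FPKM and 0.09 over 50 FPKM.

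Among 7432 or 7433 named genes with a mean of at least 5 FPKM, the genes whose values over the 6 libraries were most like each member were found by Pearson's r of log2(FPKM + 1). These libraries fall into the 2 groups, so high values of r are common and are given only as a description. The TEF-1-like transcript was most like the ecdysone receptor (Cluster-8110.35819, r = 0.998), the nuclear receptor of moulting hormone, at 16.9 ± 3.19 FPKM in dsFactin and 32.1 ± 2.28 FPKM in dsNC. TAR DNA-binding protein 43 (Cluster-8110.31011, r = 0.996) and a FAM43A-like protein (Cluster-8110.38993, r = 0.994) came next. The LATS1-like transcript was most like a clotting factor G beta subunit-like protease (Cluster-8110.33551, r = 0.998), the YAP1-A-like transcript like a cuticle protein 16.8-like transcript (Cluster-8110.35233, r = 0.991) and the merlin-like transcript like a CD9 antigen-like tetraspanin (Cluster-8110.31435, r = 0.998). MOB1B was most like a tumorous imaginal discs chaperone (Cluster-8110.33275, r = 0.994) and salvador like a mitochondrial ribosomal protein S18a (Cluster-8110.2826, r = 0.992). The S18a transcript was at 5.29 ± 9.16 FPKM in dsFactin and 5.72 ± 2.42 FPKM in dsNC (SD, n = 3). Its SD in dsFactin exceeded its mean, so this r may rest on a single library.

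Across 16 other ways of processing, YAP1-A-like, TEF-1-like and LATS1-like kept negative differences. MOB1B reached 0.35 under median-ratio scaling and turned negative in 3 settings, with array weights and without dsFactin replicate 3 or dsNC replicate 3. In all 16 it lay above the median of all genes.

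**Figure D5:**
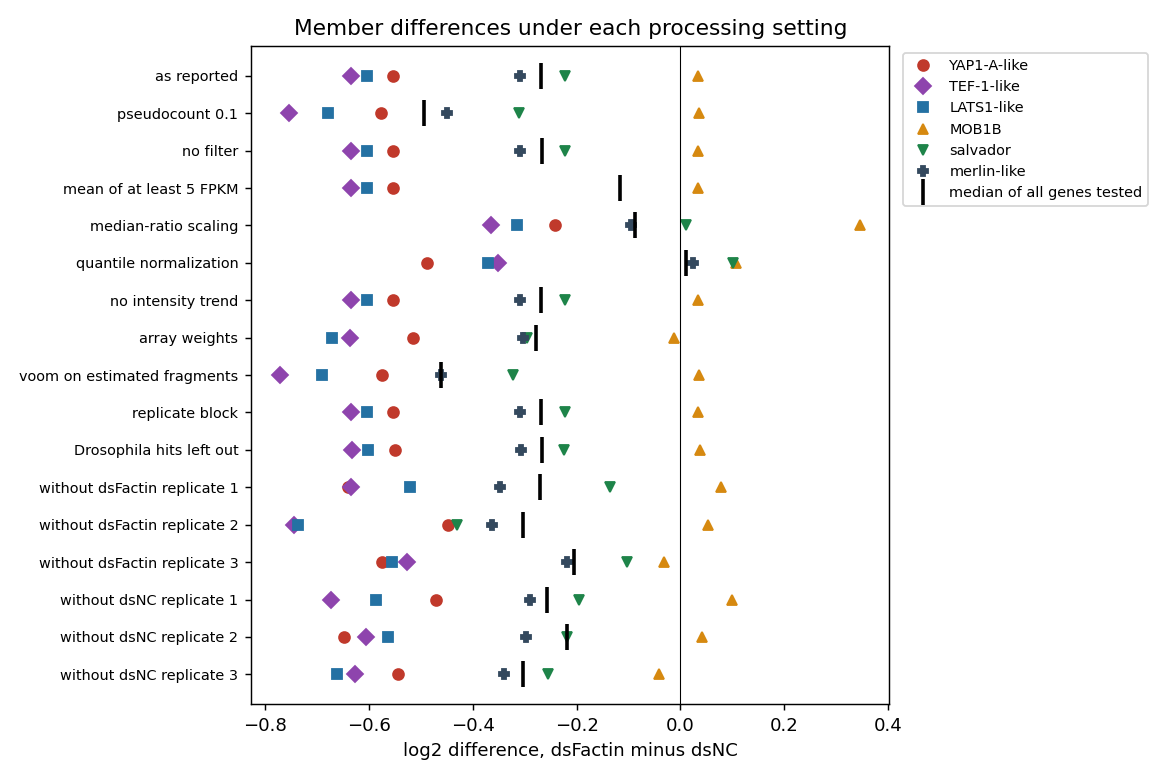
Log2 difference, dsFactin minus dsNC (horizontal axis), of each member (coloured marks) under each processing setting (vertical axis), with the median of all tested genes as a black bar. YAP1-A-like, TEF-1-like and LATS1-like stay left of the bar throughout, from -0.77 to -0.24, and salvador and merlin-like stand near it.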

How the data were processed

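The authors deposited a table of FPKM values, rounded to 2 decimals, with 1 column per library, a transcript length and best protein hits. Per the submitters' processing notes the build was mm10, a mouse genome, although the table holds spider clusters. The aligner, assembler and counter were not given in the sources used here. Groups came from the sample titles. Depth was recovered from the steps between low FPKM values, with at least 99.5% of them within 0.1 of a whole number of fragments.

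Genes reaching 0.5 FPKM in 3 or more libraries were fitted as log2(FPKM + 1), so fold changes of low genes are understated, with limma 3.58.1, run in R 4.3.3 with an intensity trend (two-sided, Benjamini-Hochberg adjustment over 53182 genes). All 6 members passed this filter. Marker lists for muscle, nerve, cuticle, hemocyanin, yolk and silk were summed. Ratios were compared by exact two-sided permutation with scipy 1.17.1. Figures used matplotlib 3.10.9.

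The members and lists were chosen with earlier results of these data known. Named genes were the members, genes of the same protein name, listed genes that passed, up to 3 most abundant genes per role, and the 3 genes most like each member, of which the closest are given. The alternatives were a pseudocount of 0.1, no filter, a filter at a mean of 5 FPKM, median-ratio scaling, quantile normalization, no trend, array weights, voom on estimated fragments, a replicate block, leaving out genes with a Drosophila best hit, and leaving out each library.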

Additional observations from a re-analysis of the deposited data

How the results depend on the processing

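In all 16 alternatives, 0 of 6 members passed, and YAP1-A-like, TEF-1-like and LATS1-like kept negative differences, from -0.65 to -0.24, -0.77 to -0.35 and -0.74 to -0.31 (smallest adjusted p = 0.0832, 0.0626 and 0.0704, limma). A filter at a mean of 5 FPKM left salvador and merlin-like untested. Signs turned for salvador under median-ratio scaling (0.012) and quantile normalization (0.10), for merlin-like under quantile normalization (0.025) and for MOB1B with array weights (-0.011). With 1 library left out, differences ranged from -0.65 to -0.45 for YAP1-A-like, -0.74 to -0.53 for TEF-1-like, -0.74 to -0.52 for LATS1-like, -0.041 to 0.10 for MOB1B, -0.43 to -0.10 for salvador and -0.36 to -0.22 for merlin-like. Over all genes, calls numbered 264 as reported, 117 without a filter, 781 at a mean of 5 FPKM, 115 with median-ratio scaling, 174 without the trend, 702 with array weights, 1206 with voom, and 33 to 1297 with 1 library left out (58, 1297 and 105 without dsFactin replicates 1, 2 and 3, and 45, 33 and 77 without dsNC replicates 1, 2 and 3). The wider list had 0 calls at pseudocount 0.1, without a filter, at a mean of 5 FPKM and with median-ratio scaling, and 0 to 2 with 1 library left out. The filter at a mean of 5 FPKM left the fat-like cadherin transcript (Cluster-8110.25323, mean 4.03 FPKM) untested. The additional call without dsFactin replicate 2 was a spectrin beta chain transcript (Cluster-9990.0) at 0, 7.37 and 0 FPKM in dsFactin and 2.23, 3.26 and 2.86 FPKM in dsNC, so leaving out that library removed its highest value. Voom gave 3 calls among the 93 tested genes of the wider list, all lower. Beside them stand 1206 calls among all 53182 genes, 881 of them lower. The 3 were a four-jointed hit (Cluster-8110.25811), a dachsous hit (Cluster-8110.36671) and a cadherin-related tumor suppressor hit (Cluster-8110.30516). Ratios without overlap numbered 7 to 11 of 15 with 1 library left out, where fewer libraries make groups easier to separate, so these counts cannot be set against the 7 over all libraries. The cause of these changes was not tested.

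With the replicate number as a block, 17 genes and 0 of the wider list passed. Same-numbered libraries correlated in their deviations at 0.099, -0.108 and -0.153, so no pairing by number was visible. With 3 libraries a group, such values cannot exclude a pairing. The highest correlation was that of dsFactin replicate 2 with dsNC replicate 3 (0.229).

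Depth limits salvador and merlin-like most, at as few as 71 and 70 fragments.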

Other observations

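The 12 genes of the wider list with a Drosophila best hit, such as twinstar and Death-associated inhibitor of apoptosis 1, were listed at 0 in all 3 dsFactin libraries. Over the table, 2134 genes had such a hit. They held 0.0214, 0.0369 and 0.0343% of FPKM in dsFactin replicates 1 to 3 and 0.0672, 0.216 and 1.19% in dsNC replicates 1 to 3. None of the 6 Hippo core members had a Drosophila best hit, and leaving such genes out changed no call among the members.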
